A study of Mus musculus with 2 samples.

Results

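Genes of blood endothelial cells, lymphatic endothelial cells, smooth muscle and pericytes were examined in RNA from sorted mouse intestinal cells. Members were chosen by name as known markers of these 4 kinds of cell. Of 35 names, 34 were found in the 17840 rows of both deposited tables, namely 16 blood endothelial, 5 lymphatic, 9 smooth muscle and 4 pericyte genes. The remaining name, Notch3os, was not analysed here. All values are FPKM, a read count scaled to transcript length and library size, so that levels can be compared between genes.

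One library came from Srcap+/+; Lgr5-Cre+ mice, called wild type, and 1 from Srcap flox/flox; Lgr5-Cre+ mice treated with tamoxifen, called Srcap knockout. The labels do not say plainly whether the wild-type mice also received tamoxifen. SRCAP is the ATPase of a complex that places the histone variant H2A.Z into chromatin, and the comparison concerns transcripts of cells sorted as Lgr5-positive intestinal stem cells from mice in which floxed Srcap was targeted for deletion. Crypts were dissociated and single cells were sorted by the GFP of Lgr5-GFP mice, without culture. The Cre is driven by Lgr5, a gene of crypt base stem cells, and neither library was labelled as endothelial or muscle. The sources used here give no strain or age of the mice, and no number of mice per library.

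There was a single library per genotype, so nothing could be tested between genotypes, and each difference is one between these 2 libraries. Srcap was at 20.4 FPKM in wild type and at 11.3 FPKM in the knockout, which is 55.7% of the wild-type value, so the sorted knockout cells as a whole kept Srcap transcript. Lgr5, which defines the labelled cells, was at 5.90 and 2.17 FPKM, and the Paneth cell defensin gene Defa24 at 14704 and 8425 FPKM. The Y-linked gene Eif2s3y was at 0.94 and 15.2 FPKM, so that the sex of the mice and the genotype cannot be told apart. Steps between low values put the depth at about 16900000 and 17100000 reads assigned to genes, or 33.9 and 34.2 reads for 1 FPKM of a 2 kb transcript.

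Blood vessels are lined by endothelial cells that are held together by VE-cadherin (Cdh5) and PECAM1 and that respond to vascular endothelial growth factors (VEGFs) and angiopoietins through receptor tyrosine kinases. Pericytes wrap small vessels and depend on PDGF receptor beta, while smooth muscle cells carry a contractile apparatus of specialised actin, myosin and calponin. In the gut, each villus holds a capillary network beneath the epithelium and a lymphatic vessel, the lacteal, with thin strands of smooth muscle. Such cells lie outside the epithelium from which Lgr5-positive cells are sorted.

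Smooth muscle genes are classic targets of the serum response factor SRF, which binds the CArG box, and many endothelial genes are targets of ETS factors. Promoter windows from RefSeq (GRCm38.p6), from 250 bases before to 50 bases after a start site, were found for 22 of the 34 genes, with 27 windows in all. The 2 windows below are shown as an example of the contractile and of the endothelial genes, and were picked after the motif search. The Acta2 window is chr19:34255324-34255623 on the minus strand, and the Kdr window is chr5:75978406-75978705 on the minus strand. Capitals mark CArG boxes with 1 inner base free in Acta2 and the ETS motif in Kdr. The Kdr window also holds a CArG box with 1 inner base free, CCATTACTGG, which begins 236 bases before the annotated start of the window and is left in lower case.
Acta2: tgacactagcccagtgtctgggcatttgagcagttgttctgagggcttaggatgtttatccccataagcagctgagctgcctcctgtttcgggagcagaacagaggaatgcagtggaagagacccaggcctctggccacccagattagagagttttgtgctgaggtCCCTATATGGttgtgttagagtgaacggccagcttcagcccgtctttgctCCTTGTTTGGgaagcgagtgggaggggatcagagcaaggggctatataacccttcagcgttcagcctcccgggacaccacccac
Kdr: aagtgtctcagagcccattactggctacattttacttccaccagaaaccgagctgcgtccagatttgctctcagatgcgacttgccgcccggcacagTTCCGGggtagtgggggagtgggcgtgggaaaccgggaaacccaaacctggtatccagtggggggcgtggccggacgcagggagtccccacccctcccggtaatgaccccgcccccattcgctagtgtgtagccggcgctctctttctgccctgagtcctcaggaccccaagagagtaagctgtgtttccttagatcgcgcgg
The CArG box, CC followed by 6 bases of A or T and then GG, reads the same on both strands, and was in 0 of 6 smooth muscle windows and in 1.63% of all 32851 windows. When 1 of the 6 inner bases was left free, a choice made after the strict search, Acta2 held CCCTATATGG and CCTTGTTTGG. These sites begin 84 and 34 bases before the annotated start used for this window, which need not be the main start of transcription. This looser form was in 1 of 6 smooth muscle, 4 of 13 blood endothelial and 9.98% of all windows. The ETS motif CCGGAA, searched on both strands, was in 1 of 13 blood endothelial windows (Kdr), in 1 of 6 smooth muscle windows (Mylk) and in 14.9% of all windows. These matches describe letters in short windows only.

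Most of the 34 genes were more abundant in the knockout library, and all were scarce. The highest level was that of Plvap, at 6.01 FPKM in wild type against 16.2 FPKM in the knockout, whereas the epithelial keratin Krt8 was at 2097 and 2975 FPKM. Of the 34 genes 33 had the higher value in the knockout library, where 54.2% of the 17014 genes above 0 did. The value was at least 2 times the wild-type value for 20 of the 34, against 10.5% of the 16270 genes above 0 in the wild-type library. The median of this ratio was 2.26 over the 34 genes and 1.01 over all genes. In RNA from a mixture, more cells of a type and more RNA per cell cannot be told apart.

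A stricter rule adds 1 FPKM to both values, which damps the ratio of low genes, and calls a gene when the log2 ratio then reaches 2-fold and the larger value is at least 1 FPKM. By this rule 7 of the 34 genes were higher and 0 lower in the knockout library, and only the 23 that reached 1 FPKM could be called. Over all genes, 2.61% were higher and 0.416% lower of the 11784 that reached 1 FPKM. Among the 7655 genes whose larger value was from 1 to 20 FPKM, 3.03% were higher and 0.353% lower. The 7 were Plvap, Tie1 and Emcn of blood endothelium and Flt4, Lyve1, Pdpn and Mmrn1 of lymphatic endothelium, and none was a smooth muscle or pericyte gene. Only 5 smooth muscle and 3 pericyte genes reached 1 FPKM, too few for 0 to differ visibly from these shares. Emcn, with a log2 ratio of 1.05, lay just inside the limit and Pecam1, with 0.91, just outside. Of the 34 genes 23 reached 1 FPKM, 13 of them in the knockout library alone, so that the filter itself favoured genes that were higher there. The median log2 ratio was therefore taken over all 34 genes, and was 0.50, against 0.01 over all 17840 genes.

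**Figure D1:**
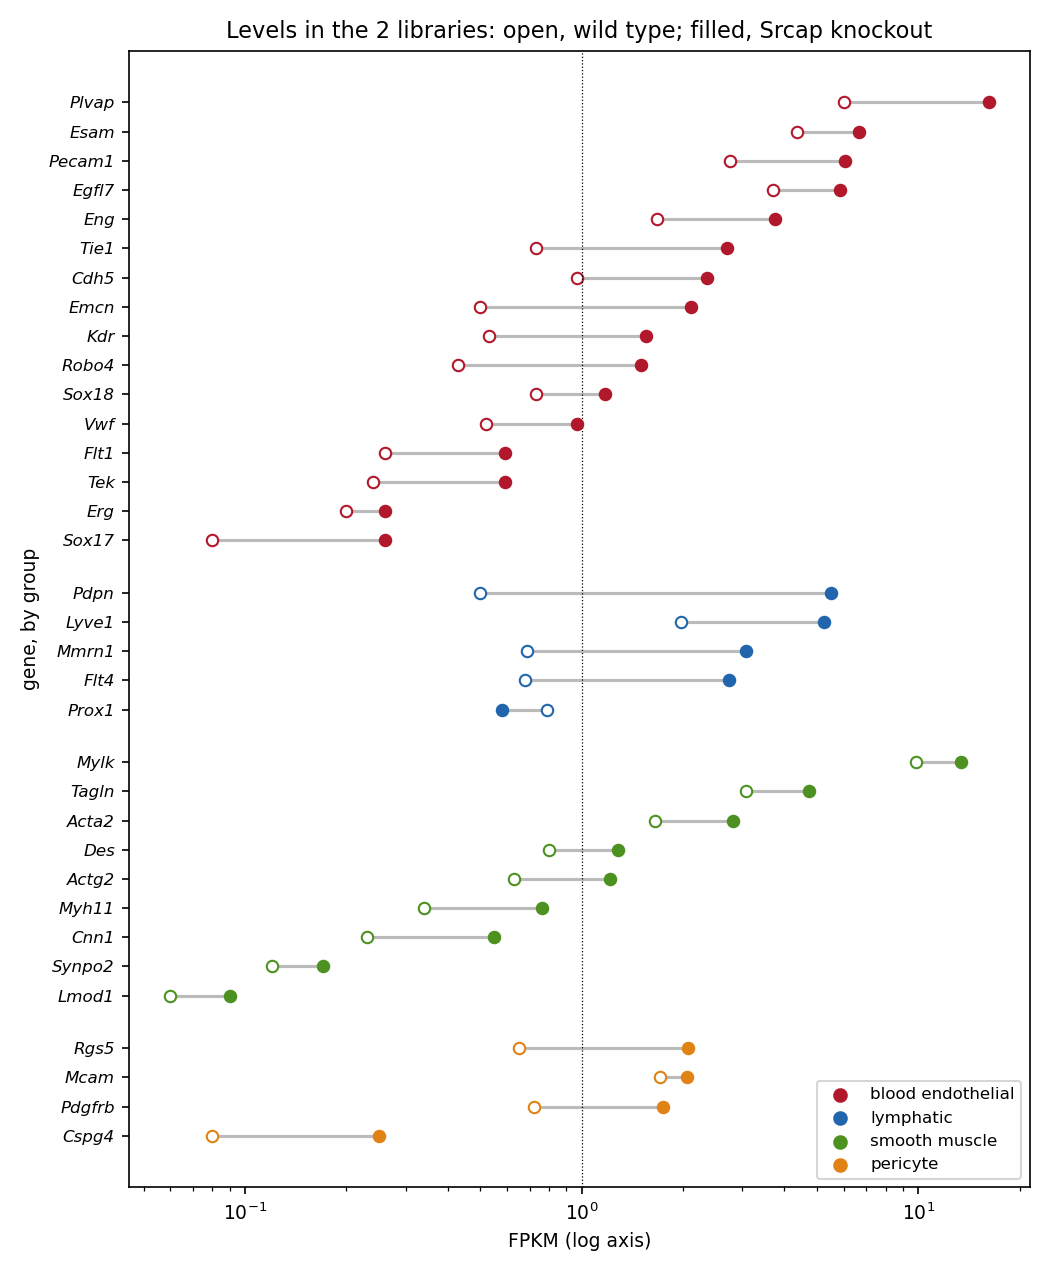
FPKM of each of the 34 genes on a log axis, with open circles for the wild-type and filled circles for the knockout library, 1 library each, coloured by group, and a dotted line at 1 FPKM. The filled circle lies to the right for every gene except Prox1, and Plvap, at 16.2 FPKM, is the highest.

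Blood endothelial genes were higher in the knockout library in 16 of 16 cases, with 3 past the 2-fold rule and a median log2 ratio of 0.64. Their summed level was 23.7 FPKM in wild type against 52.6 FPKM in the knockout, or 2.22-fold higher. By comparison, 2.61% of all genes that reached 1 FPKM passed the 2-fold rule as higher. Among the junction and surface proteins, Pecam1, the adhesion molecule of endothelial contacts that leukocytes and platelets also carry, was at 2.75 and 6.04 FPKM, a 2.20-fold difference. Cdh5, the cadherin of endothelial junctions, was at 0.97 and 2.36 FPKM, or 2.43-fold higher. Esam, a tight junction adhesion molecule, was at 4.35 and 6.64 FPKM, only 1.53-fold apart. The sialomucin gene Emcn, an endothelial surface protein of veins and capillaries, was 4.22-fold higher, from 0.50 to 2.11 FPKM, and its ratio was the largest of this group.

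Folds of single genes are ratios of FPKM without the added 1 FPKM. Their counting error was taken from approximate reads (level times mean transcript length), as an exact 95% binomial interval that leaves out the difference between mice. For Emcn, with about 17 and 71 reads, this interval ran from 2.41 to 7.50. Plvap, which forms the diaphragms of fenestrated capillaries such as those of the villus, was 2.69-fold higher with an interval from 2.29 to 3.19, on about 202 and 550 reads. The intervals lay above 1 for 25 of the 34 genes and below 1 for 0, against 23.9% above and 14.7% below of 16906 genes with a length. For the 9 others a difference was not detectable at this depth.

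VEGF and angiopoietin receptors were all higher in the knockout library. Kdr, the main VEGF receptor of blood endothelium, was at 0.53 and 1.55 FPKM, or 2.92-fold higher (interval 2.14 to 4.09). Flt1, a receptor that also acts as a decoy for VEGF, was at 0.26 and 0.59 FPKM, and Tek, the angiopoietin receptor, at 0.24 and 0.59 FPKM. Tie1, its partner receptor, was 3.71-fold higher, from 0.73 to 2.71 FPKM (interval 2.70 to 5.10), and of these 4 receptors it alone passed the 2-fold rule. Eng, a coreceptor for TGF-beta and BMP9, was at 1.67 and 3.75 FPKM, and Robo4, an endothelial guidance receptor, at 0.43 and 1.5 FPKM, or 3.49-fold higher.

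Values of the ligands of these receptors lay in both directions. Vegfa was at 7.45 and 7.89 FPKM, a ratio of 1.06 with an interval from 0.871 to 1.29. Vegfb was at 20.5 and 16.4 FPKM, and Angpt2, an angiopoietin, at 2.42 and 1.28 FPKM with a ratio of 0.529 (interval 0.397 to 0.702). Pgf was at 0.18 and 0.92 FPKM, the lymphatic growth factor gene Vegfc at 1.94 and 2.72 and Figf at 0.20 and 0.41 FPKM. The coreceptor genes Nrp1 and Nrp2 were at 0.74 and 1.52 and at 0.62 and 1.05 FPKM. Angpt1 had 0.01 FPKM in wild type and was listed at 0 in the knockout. Of these 9 genes 0 passed the 2-fold rule in either direction and 6 had the higher value in the knockout library, with a median log2 ratio of 0.23. Over all genes, 54.2% of those above 0 had the higher value there. Of those that reached 1 FPKM, 2.61% passed as higher and 0.416% as lower, and 9 genes are too few to differ visibly from such shares.

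Secreted and regulatory endothelial genes differed less or were too scarce to tell. Egfl7, a secreted vascular protein, was at 3.71 and 5.86 FPKM, or 1.58-fold higher (interval 1.15 to 2.17). Vwf, the clotting factor of endothelium and platelets, was at 0.52 and 0.97 FPKM, or 1.87-fold higher. The transcription factor genes Erg, Sox17 and Sox18 were at 0.20 and 0.26, at 0.08 and 0.26 and at 0.73 and 1.17 FPKM. They rested on about 7 and 9, 3 and 11, and 20 and 32 reads, and their intervals all included 1.

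Of a further 31 endothelial genes, 29 had the higher value in the knockout library. The exceptions were Tal1, at 0.07 FPKM in both, and Apln, at 0.55 and 0.31 FPKM. Of the 31 genes 3 passed the 2-fold rule and 0 were lower by it, and the median log2 ratio was 0.28, with 16 of them below 1 FPKM in both libraries, where the pseudocount damps the ratio. Among all genes that reached 1 FPKM, 2.61% passed as higher and 0.416% as lower. Cd34, a sialomucin of endothelium that fibroblasts also carry, was at 1.53 and 9.32 FPKM, or 6.09-fold higher. The adrenomedullin receptor component Ramp2 was at 1.19 and 4.38 FPKM and the endothelial claudin Cldn5 at 0.72 and 2.81 FPKM. Podxl, a sialomucin gene that was just short of the rule, was at 1.12 and 3.23 FPKM.

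Lymphatic genes had the highest median ratio of the 4 groups, with 4 of 5 past the 2-fold rule and a median log2 ratio of 1.15. Their summed level was 4.63 FPKM in wild type against 17.2 FPKM in the knockout, or 3.70-fold higher. The share past the 2-fold rule as higher was 2.61% over all genes that reached 1 FPKM. Flt4, the receptor for VEGF-C, was at 0.68 and 2.74 FPKM, a 4.03-fold difference with an interval from 3.11 to 5.30 on about 72 and 293 reads. Mmrn1, a secreted multimerin of lymphatic endothelium and platelets, was at 0.69 and 3.07 FPKM, or 4.45-fold higher (interval 3.31 to 6.17). Lyve1, a hyaluronan receptor of lymphatic endothelium that some macrophages also carry, was at 1.97 and 5.26 FPKM, or 2.67-fold higher (interval 2.10 to 3.39).

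Pdpn and Prox1 stood at opposite ends of this group. Pdpn, the membrane glycoprotein podoplanin, was at 0.50 and 5.50 FPKM, an 11.0-fold difference with an interval from 5.88 to 22.4 on about 11 and 121 reads. Of the 11784 genes that reached 1 FPKM, 0.40% had a log2 ratio as high as that of Pdpn, 2.12. Podoplanin is also made by fibroblasts and mesothelial cells, whose markers moved with it. Msln was at 0.92 and 19.2, Upk3b at 1.27 and 26.1 and Col1a1 at 2.36 and 26.3 FPKM, and their part in the Pdpn value was not tested. Prox1, the transcription factor that specifies lymphatic endothelium, was at 0.79 and 0.58 FPKM, a ratio of 0.734 with an interval from 0.489 to 1.08 that includes 1. Prox1 is also known from enteroendocrine cells of the mouse gut, and 10 enteroendocrine markers summed to 346 FPKM in wild type and to 179.8 FPKM in the knockout. Their part in the Prox1 value was not tested.

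Other lymphatic genes held a value listed at 0 in the wild-type library. Ccl21a, a chemokine of lymphatic endothelium and lymphoid stroma with near-identical gene copies that make its level uncertain, was listed at 0 in the wild-type library and was at 35.4 FPKM in the knockout library. Of 13 further genes 3 passed the 2-fold rule, and the median log2 ratio was 0.47, or 0.89 over the 7 that reached 1 FPKM. Besides Ccl21a these were Cp, which encodes ceruloplasmin and is not particular to lymphatics, at 0.34 and 3.24 FPKM, and Fgl2, at 4.11 and 10.7 FPKM. The connexin gene Gja1 was at 0.45 and 1.69 FPKM, the lymphatic extracellular matrix gene Reln at 0.35 and 1.13 FPKM and the valve factor gene Foxc2 was listed at 0 and was at 0.15 FPKM. Genes of immune cells and stroma are among these 13, so the count is not one of lymphatic cells alone. Among all genes that reached 1 FPKM, 2.61% passed the 2-fold rule as higher.

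**Figure D2:**
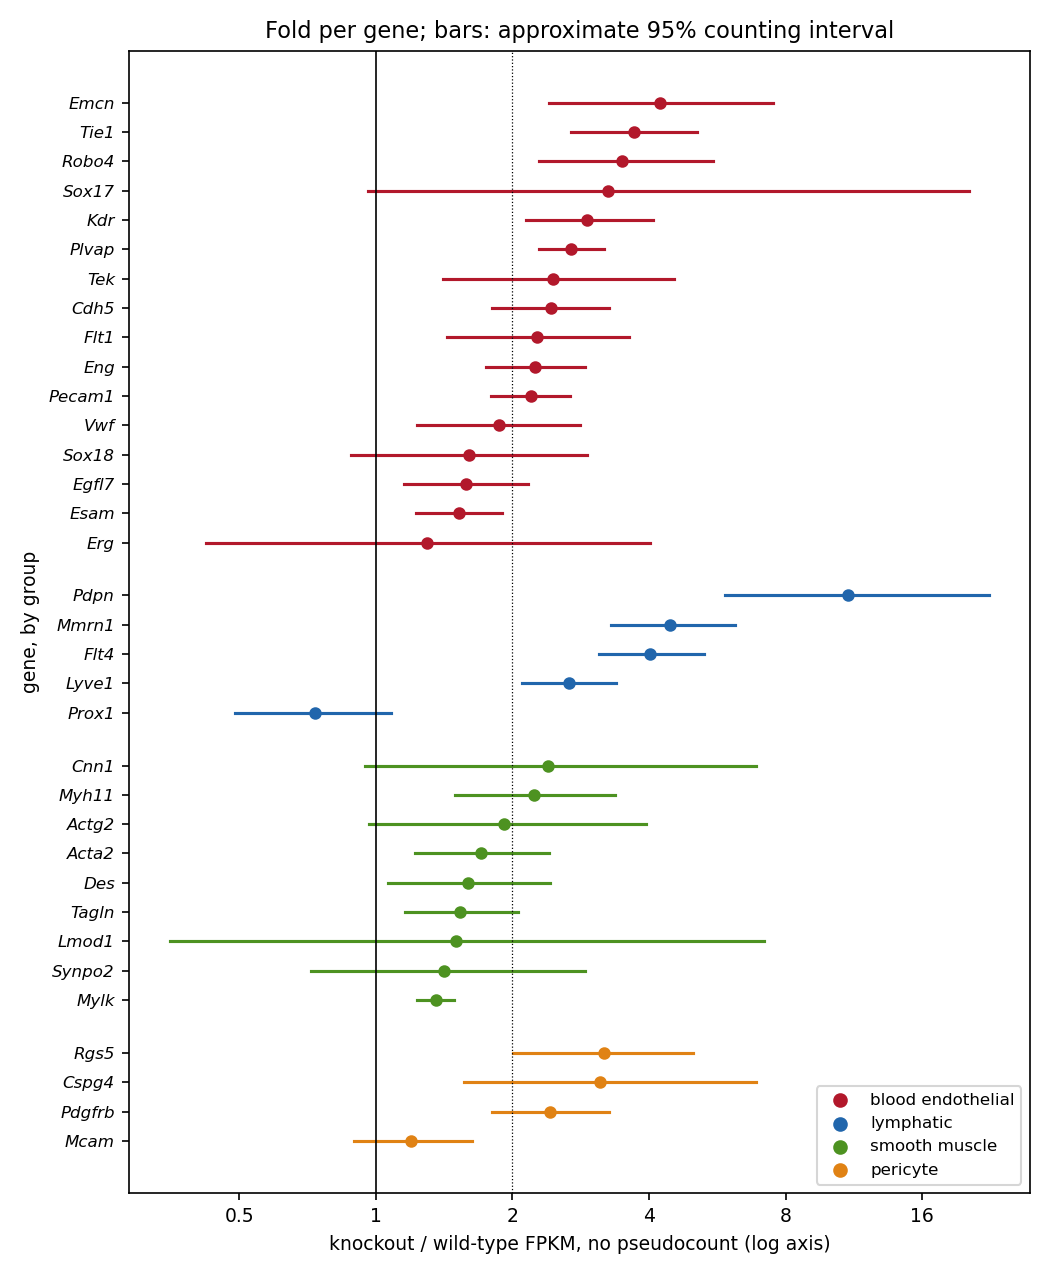
Ratio of knockout to wild-type FPKM per gene on a log axis, without pseudocount, with approximate 95% counting intervals as bars, a solid line at 1 and a dotted line at 2. Pdpn lies at 11.0 and Prox1 at 0.734, while the smooth muscle genes lie between 1.36 for Mylk and 2.39 for Cnn1.

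Smooth muscle genes were higher in the knockout library in 9 of 9 cases, but 0 passed the 2-fold rule and the median log2 ratio was 0.39. Their summed level was 16.8 FPKM in wild type against 24.96 FPKM in the knockout, or 1.49-fold higher. With only 5 of the 9 genes at 1 FPKM, 0 past the rule cannot be told apart from the 2.61% over all genes. Mylk, the myosin light chain kinase, held more than any other gene of this group, at 9.86 and 13.4 FPKM, with a ratio of 1.36 (interval 1.24 to 1.49). It is not restricted to muscle, since its gene also encodes a kinase of non-muscle cells. Without Mylk, the sum of the other 8 was 6.91 and 11.6 FPKM, a ratio of 1.68.

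Among the actin and actin-binding genes, Acta2, the alpha actin of vascular smooth muscle and myofibroblasts, was at 1.65 and 2.81 FPKM, or 1.70-fold higher (interval 1.22 to 2.41). Actg2, the gamma actin of visceral smooth muscle, was at 0.63 and 1.21 FPKM, and its interval from 0.968 to 3.95 includes 1. Actin genes are alike in sequence, so that 50 bp reads can be split among them. Tagln, an actin-binding protein of smooth muscle, was at 3.08 and 4.72 FPKM, or 1.53-fold higher, and its annotated span overlaps that of Pcsk7, at 12.8 and 16.8 FPKM. Cnn1, the calponin of differentiated smooth muscle, was at 0.23 and 0.55 FPKM on about 7 and 17 reads.

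Other genes of mature smooth muscle were scarce. Myh11, the smooth muscle myosin heavy chain, was at 0.34 and 0.76 FPKM, or 2.24-fold higher (interval 1.49 to 3.37). Des, the muscle intermediate filament desmin, was at 0.80 and 1.28 FPKM, or 1.60-fold higher. The actin filament protein genes Lmod1 and Synpo2 were at 0.06 and 0.09 FPKM and at 0.12 and 0.17 FPKM, and neither interval excluded 1. Of the 9 smooth muscle genes 5 had an interval above 1, against 13 of 16 blood endothelial genes.

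The transcriptional regulators of this program that reached 1 FPKM differed by less than 2-fold. Srf was at 28.0 and 35.0 FPKM, a ratio of 1.25 (interval 1.16 to 1.35). Its coactivator genes Mkl1 and Mkl2 were at 9.30 and 9.87 and at 6.63 and 5.96 FPKM. These factors are active in many cells. Myocd, the coactivator restricted to cardiac and smooth muscle, was at 0.04 and 0.01 FPKM, about 3 and 1 reads, too few to tell (interval 0.006 to 4.12). Mef2c was at 0.77 and 1.07 FPKM. Mef2a was at 3.44 and 4.74 FPKM, a ratio of 1.38 (interval 1.16 to 1.64). The intervals of Mkl1, Mkl2, Mef2c and Myocd included 1. Of these 6 genes 0 passed the 2-fold rule and 4 had the higher value in the knockout library, with a median log2 ratio of 0.15. Of all genes above 0, 54.2% had the higher value there, and 2.61% of those that reached 1 FPKM passed as higher. Counts from so few genes cannot be told apart from these shares.

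Of 25 further smooth muscle genes 1 was higher and 1 lower by the 2-fold rule. The median log2 ratio was 0.08, or 0.12 over the 17 that reached 1 FPKM. With 17 genes, 1 each way cannot be told apart from the shares over all genes, 2.61% higher and 0.416% lower. The higher one was Pdlim3, a muscle Z-disc protein, at 0.21 and 2.01 FPKM, and the lower one was Sncg, gamma-synuclein, at 9.01 and 3.44 FPKM. Sncg is also known from neurons. The list is dominated by genes that epithelium expresses as well, with Myl6 at 815 and 970 FPKM and Tpm1 at 177 and 163 FPKM. Mustn1 was at 0.48 and 1.80 and Cald1, which encodes caldesmon, at 0.76 and 1.77 FPKM.

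The 4 pericyte genes all had the higher value in the knockout library, with 0 past the 2-fold rule and a median log2 ratio of 0.44. Only 3 of them reached 1 FPKM, too few for 0 to differ visibly from the 2.61% over all genes. Rgs5, a regulator of G protein signalling that marks pericytes, was at 0.65 and 2.07 FPKM, or 3.18-fold higher (interval 2.0 to 5.01), and its log2 ratio of 0.90 was close to the limit. Pdgfrb, the receptor that recruits pericytes and that fibroblasts also carry, was at 0.72 and 1.74 FPKM, or 2.42-fold higher (interval 1.81 to 3.27). Cspg4, the proteoglycan NG2, was at 0.08 and 0.25 FPKM on about 11 and 35 reads. Mcam, an adhesion molecule of pericytes, smooth muscle and endothelium, was at 1.71 and 2.05 FPKM, and its interval from 0.894 to 1.63 includes 1. Pericyte members other than Cspg4 reached 1 FPKM in the knockout library.

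Of 16 further pericyte genes 2 passed the 2-fold rule and the median log2 ratio was 0.12. Of these 16 genes 12 were below 1 FPKM in both libraries and so could not be called. The 4 that reached 1 FPKM all had the higher value in the knockout library, with a median of 0.75. The share past the rule as higher was 2.61% over all genes that reached 1 FPKM. Cd248, endosialin, which fibroblasts also carry, was at 0.38 and 2.21 FPKM and the potassium channel gene Kcnj8 at 0.18 and 1.62 FPKM, or 9.0-fold higher (interval 4.36 to 24.5). Notch3, a receptor of pericytes and arterial smooth muscle, was at 0.26 and 0.38 FPKM. Pdgfb, the ligand that endothelium supplies to pericytes, was at 0.83 and 1.22 FPKM. The subunit of a soluble guanylate cyclase, Gucy1a3, was at 0.57 and 1.0 FPKM.

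Side by side, the 4 groups had ratios of different size, and no test was possible between them. The summed level was 3.70-fold higher for lymphatic, 2.22-fold for blood endothelial, 1.93-fold for pericyte and 1.49-fold for smooth muscle genes. The median of single ratios gave another order, at 4.03 for lymphatic, 2.77 for pericyte, 2.35 for blood endothelial and 1.6 for smooth muscle genes. Sums weigh the most abundant genes, such as Mcam at 1.71 and 2.05 FPKM in the pericyte group and Mylk in the smooth muscle group. The range of single ratios overlapped between the groups, from 1.30 (Erg) to 4.22 (Emcn) in blood endothelium, from 0.734 to 11.0 in the lymphatic group, from 1.36 to 2.39 in smooth muscle and from 1.20 (Mcam) to 3.18 (Rgs5) in pericytes. Plvap and Eng overlap other genes on the annotation, Gtpbp3 at 11.7 and 11.3 FPKM and Fpgs at 19.1 and 14.8 FPKM, and whether strand was used in counting is not stated in the sources used here.

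**Figure D3:**
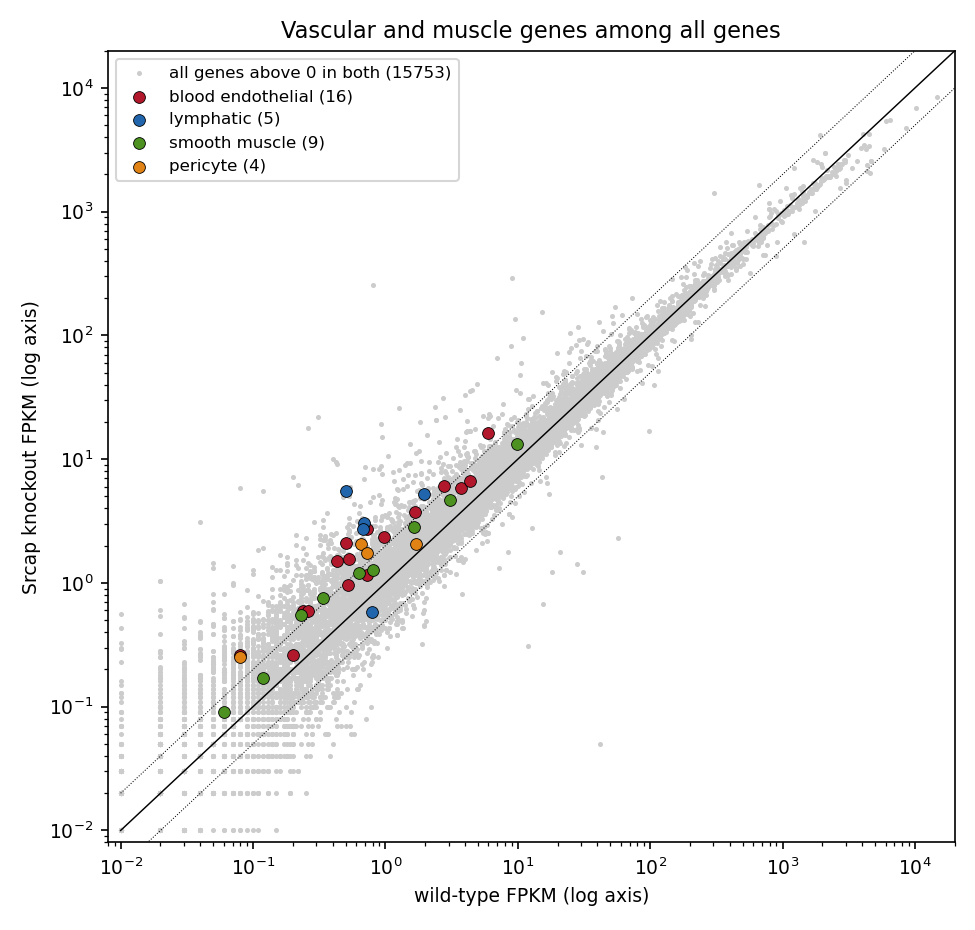
Knockout against wild-type FPKM on log axes for 15753 genes above 0 in both libraries (grey) and the 34 genes by group (colours), with a solid line of equality and dotted lines at 2-fold. The coloured points lie at the low end, at or below 16.2 FPKM, and 33 of 34 lie above the line of equality.

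Fibroblast, mesothelial and myeloid markers were higher in the same library. Of 12 fibroblast markers 7 passed the 2-fold rule with a median log2 ratio of 2.20, and their sum was 52.7 and 259 FPKM. All had the higher value in the knockout library, with Col1a2 at 2.74 and 31.1, Dcn at 8.94 and 82.8 and Col3a1 at 4.48 and 36.2 FPKM. Of 9 mesothelial markers 8 passed, with a median of 2.56, among them Nkain4 at 0.40 and 10.1 FPKM and Rspo1 at 0.43 and 9.18 FPKM. The sum of this list, 1821 and 2609 FPKM, is nearly all Krt19, which epithelium expresses. Of 12 myeloid markers 9 passed, with a median of 1.17 and a sum of 186 and 454 FPKM. Fcer1g was at 7.57 and 23.2, C1qa at 33.5 and 85.3, C1qb at 29.9 and 75.3 and Tyrobp at 12.1 and 30.8 FPKM. Their part in the values of shared markers such as Lyve1, Pecam1 and Pdgfrb was not tested.

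Platelet and epithelial markers had medians near 0 over all their genes. The shares past the 2-fold rule over all genes that reached 1 FPKM were 2.61% higher and 0.416% lower. Of 6 platelet markers 0 passed the 2-fold rule and the median log2 ratio was 0.00, or 0.40 over the 2 that reached 1 FPKM. With 2 such genes, 0 cannot be told apart from the share over all genes. Pf4, a platelet chemokine gene, was at 1.62 and 3.60 FPKM, or 2.22-fold higher with an interval from 1.13 to 4.47. Gp1bb was at 46.7 and 46.5 FPKM, far above the other genes of its receptor complex, Gp9 at 0.14 and 0.15 and Gp1ba at 0.18 and 0.15 FPKM. Ppbp was listed at 0 in the wild-type library. The part of platelets in the values of Pecam1, Vwf and Mmrn1 was not tested. Of 10 epithelial markers 1 passed, Krt20 at 60.8 and 146 FPKM, with a median of 0.08. A count of 1 in 10 genes is also too small to set apart from that share. Krt8 has been given above, Vil1 was at 217 and 280 FPKM and Cdx2 at 146 and 113 FPKM. Of 9 stem cell markers 9 were lower in the knockout library and 2 of them passed the rule, with a median of -0.66, Olfm4 at 1457 and 568, Ascl2 at 19.1 and 10.7 and Rgmb at 29.2 and 17.7 FPKM besides Lgr5.

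**Figure D4:**
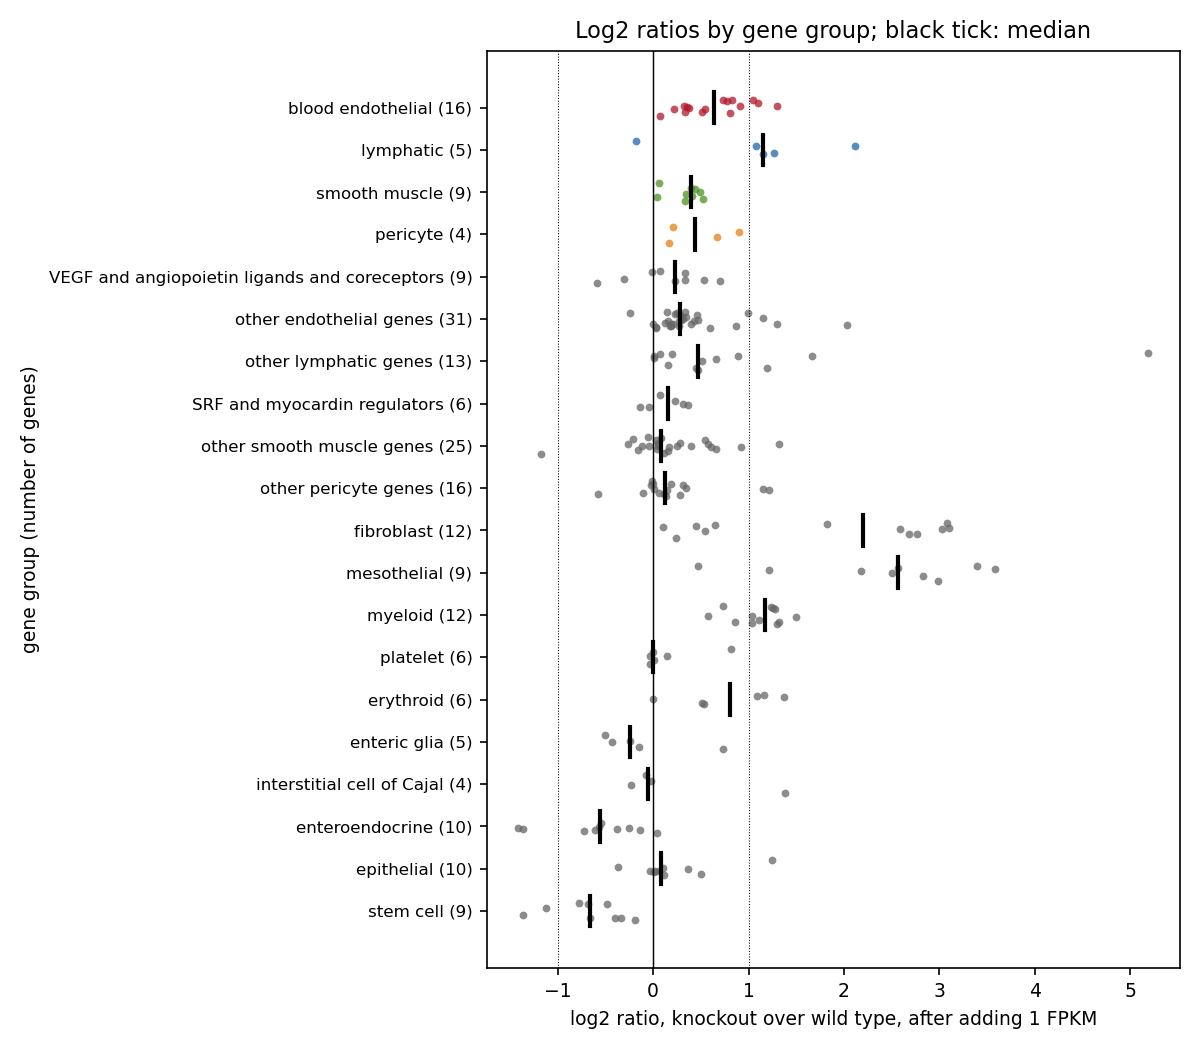
Log2 ratio of knockout over wild type after adding 1 FPKM, for each measured gene of the 4 groups (colours) and 16 further lists (grey), with black ticks at the median and dotted lines at 2-fold. The medians of the blood endothelial (0.64), lymphatic (1.15), smooth muscle (0.39) and pericyte (0.44) groups lie below those of the fibroblast (2.20) and mesothelial (2.56) lists.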

How the data were processed

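RNA sequencing libraries of sorted Lgr5-positive cells, 1 per genotype, were single-end with reads of 50 bp, per the labels' protocols. The authors deposited FPKM values with 2 decimals. Per the submitters' processing notes, HISAT, Bowtie2 and RSEM were used (no version or role stated), with mm10. mm10 is the same assembly as GRCm38, which gave the promoter windows.

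Tables were joined on Entrez identifier, and genes were matched by symbol. Python 3.11.15, pandas 2.3.3, numpy 2.4.6, scipy 1.17.1 and matplotlib 3.10.9 were used. One read was worth 0.059 FPKM kb (99 single-transcript genes shorter than 900 nt) and 0.0585 FPKM kb (101 genes). With them 73.7% and 69.3% of values fell no more than 0.2 from a whole read, so depth is approximate. Read numbers use the mean length of GENCODE M21 basic coding transcripts. Members and lists were chosen with earlier results of these data known. All members are named, and from each of 16 further lists up to 4 genes with the largest absolute log2 ratios among those that reached 1 FPKM, all genes of the VEGF and SRF lists, plus a few picked after their values were seen or as checks (Srcap, Defa24, Eif2s3y, Ppbp, Gp9, Gp1ba, Reln, Foxc2, Apln, Tal1, Notch3, Myl6 and Tpm1). A gene of these lists is not reported here. Alternatives were other pseudocounts, filters, scalings and a 3-fold rule.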

Additional observations from a re-analysis of the deposited data

How the results depend on the processing

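No paired analysis was possible because each genotype had 1 library. Of the members, 7 were higher by the 2-fold rule. This became 14 with a pseudocount of 0.1 FPKM (5.57% of all genes), 0 with 5 FPKM (0.916%) and 1, Pdpn, under a 3-fold rule (0.84%). With a minimum of 5 FPKM for the larger value only 7 members were left, and 3 of them were higher (2.31%). The number higher was 10 after rescaling to a sum of 1000000 (3.8%). It stayed at 7 after rescaling to the median (2.54%) or upper quartile (2.47%). The number lower was 0 under every alternative. Over genes that reached 1 FPKM, the median log2 ratio was 0.77 for all members, 0.81 for blood endothelial, 1.21 for lymphatic, 0.44 for smooth muscle and 0.67 for pericyte genes. With a pseudocount of 0.1 FPKM the first 3 were 1.17, 1.20 and 1.93 and the pericyte median 1.17. With 5 FPKM these 4 were 0.32, 0.32, 0.53 and 0.24. In every alternative that gave a smooth muscle median, it stayed between the medians of its genes' lower and upper interval ends. No counting interval of a group median was computed. Without the filter the median of all members was 0.50 and of pericyte genes 0.44. The lymphatic median was 1.60 among genes at 5 FPKM or more, a level that no pericyte gene reached, and 1.40 after rescaling to the sum. No single gene changed direction in any alternative, and 47 of the values for single genes moved past their counting interval, 40 of them through the pseudocount, by construction. For genes of at least 10 FPKM, the overall median log2 ratio was -0.02, and at most 0.07 under any scaling. The CArG box with 1 inner base free, chosen after seeing the data, was in 1 smooth muscle window in place of 0.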

Other observations

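Lists of further cell types of the gut wall gave no common direction. Of all genes that reached 1 FPKM, 2.61% were higher and 0.416% lower in the knockout library by the 2-fold rule. Of 5 enteric glia markers 0 passed the 2-fold rule and the median log2 ratio was -0.24. In the wild-type and knockout libraries, Gfap was at 1.25 and 0.59 and Cryab at 3.09 and 5.81 FPKM. All but Cryab, 4 of the 5, had the lower value in the knockout library. Of the 5, 3 were below 1 FPKM in both libraries and so could not be called. The 2 that could be called are too few to set 0 apart from the shares over all genes. Of 4 markers of interstitial cells of Cajal, the pacemaker cells of gut muscle, 1 passed, the chloride channel gene Ano1 at 0.67 and 3.36 FPKM, while Kit was at 6.83 and 5.65 FPKM and the median was -0.05. Only 2 of these 4 genes reached 1 FPKM, too few to read a count from. Of 6 erythroid genes 3 passed the rule as higher, with a median of 0.81. Hba-a1 was at 19.8 and 45.6, Hbb-bs at 19.6 and 42.8, Hbb-bt at 2.64 and 8.42 and Hba-a2 at 10.6 and 15.6 FPKM, and the globin genes of a pair are near-identical. Of 10 enteroendocrine markers 2 were lower by the rule, with a median of -0.55. They were Gip, at 107 against 39.5 FPKM, and Ghrl, at 43.8 against 16.5 FPKM, both encoding hormones, and the granule protein genes Chga and Chgb were at 95.6 and 57.6 and at 79.5 and 51.8 FPKM.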
